A study of Mus musculus with 6 samples.

Results

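The clustered protocadherins were taken as the 58 genes of the count table that lie on chromosome 18 and whose symbols start with Pcdha, Pcdhb or Pcdhg, out of 54532 genes listed. They stand on the plus strand of the GRCm38 assembly in 3 clusters. The α cluster holds 14 genes between 36930184 and 37187661, of which 12 are alternate genes and *Pcdhac1* and *Pcdhac2* are C-type genes. The β cluster holds 22 genes between 37264938 and 37524479. The γ cluster holds 22 genes between 37661793 and 37841873, with 12 of A type, 7 of B type and the 3 C-type genes *Pcdhgc3*, *Pcdhgc4* and *Pcdhgc5*. Protein-coding genes make up 57 of the 58, and *Pcdhgb8* is listed as a polymorphic pseudogene. The symbol *Pcdha11* names 2 rows, ENSMUSG00000007440 and ENSMUSG00000102206. The RefSeq gene table of GRCm38.p6 has *Pcdha10* at the place of the first and *Pcdha11* at the place of the second, and the rows are given here as the first and the second *Pcdha11* row. After edgeR's filter on low counts, 53 members were tested. *Pcdha4*, *Pcdha8*, the second *Pcdha11* row, *Pcdhb1* and *Pcdhga10* had too few counts.

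Clustered protocadherins are cell-surface proteins of the cadherin superfamily that bind the same isoforms on neighbouring membranes. Each alternate gene of the α and γ clusters has its own promoter and one large variable exon for the extracellular, membrane-spanning and first cytoplasmic parts of the protein, which is spliced to constant exons at the end of the cluster. The β genes are single-exon genes without a constant part. A neuron expresses a limited choice of alternate isoforms, a choice that involves promoter methylation, CTCF and cohesin, whereas C-type genes are expressed more evenly between neurons. In the cerebellum, γ protocadherins are known for keeping the dendrites of a Purkinje cell apart from each other. Without regard to region, γ protocadherins are also known for the survival of interneurons and *Pcdhac2* for the spacing of serotonergic axons.

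Poly-T selected RNA of whole cerebella at postnatal day 1 was sequenced from 3 control littermates without Cre and 3 conditional mutants. The controls carried the genotype *Tox3* f/f and the mutants Nestin-cre;*Tox3* f/f, so the floxed allele was homozygous in both groups. Whether a library held 1 cerebellum or several is not given in the sources used here, and p-values measure the spread between these 6 libraries. Nestin-Cre drives recombination in neural progenitors and their descendants. It was present in every mutant and in no control, and the transgene and the deletion therefore cannot be told apart. *Tox3*, the targeted gene, encodes a nuclear protein with an HMG box and was counted at 64.3, 63.02 and 64.4 CPM in the controls and 55.3, 63.2 and 59.2 CPM in the mutants, with overlapping ranges. The count covers the whole gene and not the deleted part alone, so it does not check the labels, and control and mutant below mean the libraries so labelled. Library totals lay between 15391854 and 17178478 counts, so a gene with 3 counts stood at no more than 0.196 CPM (the count scaled to the TMM-normalized library total). Markers of the labelled tissue were present, with *Pax6*, *Neurod1* and *Calb1* at 126 CPM or more in every library. *Gabra6*, a gene of mature granule neurons, did not pass the filter.

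The libraries also fell into sets that did not follow the genotype. Control 1, mutant 1 and mutant 3 had between 220.5 and 275 CPM on Y-chromosome genes, and control 2, control 3 and mutant 2 had between 1983 and 2419 CPM of *Xist*, the RNA that coats an inactive X chromosome. With the Y-gene level added to the fit, 541 of 17505 tested genes had an adjusted p under 0.01 for it, 497 of them outside the X and Y chromosomes. Of the 541, 531 were higher in the *Xist* libraries, and their median exon length was 10369 bases against 3936 bases for all tested genes. Sex and another difference between these sets of libraries cannot be told apart. The Y set holds 1 control and 2 mutants and the *Xist* set 2 controls and 1 mutant, and the members' results are therefore also given within each set or with the Y-gene level as a covariate.

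How reads were credited to the members bears on every value. All 14 α genes carry the same 2860 bases of constant exons, which end together at about 37187657, and the 22 γ genes share 2116 to 2119 bases that end at about 37841873. In GENCODE M21, whose exon lengths are those of the table for all 58 members, a read on these bases overlaps every gene of its cluster. Of the genes that carry these exons, 3 were nearly empty. *Pcdha4* had at most 8 counts in a library, the second *Pcdha11* row at most 5 and *Pcdhga10* at most 6, so constant-exon reads were not credited to every gene of a cluster. The variable exons of these 3 genes are themselves covered by other gene models. *Pcdhga10* has 0 bases of its own beside the antisense gene *Gm26672*, *Pcdha4* has 404 beside the readthrough gene *Gm42416*, and the second *Pcdha11* row has 1268 beside the antisense gene *Gm10545*. It is not given in the sources used here whether the counting used strand. With strand, *Pcdhga10* would have 2613 bases of its own and the second *Pcdha11* row 4606. *Pcdha4* would still have only 494, since *Gm42416* lies on the same strand. The low counts of these 3 therefore do not show that they were not transcribed. Of the 22 β genes, 19 share no exon base with another gene, *Pcdhb21* and *Pcdhb22* overlap by 455 bases, and *Pcdhb12* shares 1927 bases with the antisense gene *Gm37446*. The counts of α and γ members are therefore best read as counts on variable exons. Shares of counts and ranks by counts, where given below, also follow the length of exon on which reads were counted. Levels are compared between genes per kilobase of own exon, the bases that lie in no other gene's exon.

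On that scale, the C-type genes *Pcdhgc3*, *Pcdhgc4* and *Pcdhac2* stood above all other members. In the controls, *Pcdhgc3* had 48.3, 45.2 and 46.1 CPM per own kb, *Pcdhgc4* 16.5, 14.6 and 12.6 and *Pcdhac2* 12.7, 13.03 and 14.9. *Pcdhgc3* did not overlap the other members, and the ranges of *Pcdhgc4* and *Pcdhac2* overlapped each other. The value of *Pcdhgc3* leaves out 1559 bases that overlap the antisense gene *BC037039*, and with these bases counted it was 25.1 CPM per kb, still the highest. The other C-type genes were far lower, at 2.26 CPM per own kb for *Pcdhgc5* and 0.752 for *Pcdhac1*. Among the alternate genes, *Pcdhga11* (9.43), *Pcdhgb6* (8.59) and *Pcdhgb7* (6.52 CPM per own kb) were highest. For *Pcdhga11* and *Pcdhgb7* this order depends on bases that overlap the antisense gene *Gm26672*. With these bases counted they had 4.49 and 4.58 CPM per kb, below *Pcdhga3* (5.50) and *Pcdhga2* (5.04), and *Pcdhgb6* was the highest alternate gene. Tested β genes lay between 0.648 CPM per own kb for *Pcdhb14* and 3.94 for *Pcdhb20*, a narrower range than that of the tested α genes (0.546 to 13.5) and γ genes (0.457 to 46.5). The median was 2.56 CPM per own kb for α, 1.38 for β and 3.86 for γ. The order was nearly the same in the mutants, with Spearman's rho of 0.95 between the group means over the 53 tested members, which share their libraries and their exon lengths.

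**Figure D1:**
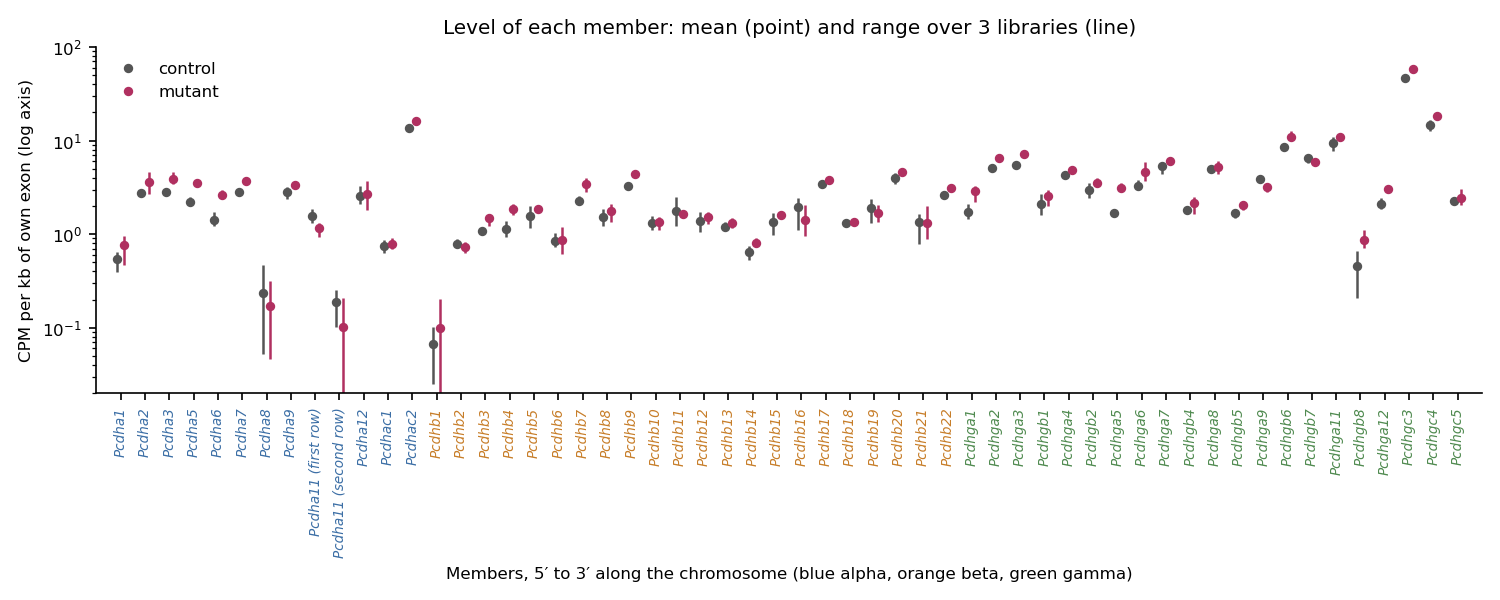
Level of each member in CPM per kilobase of own exon (log axis) in chromosome order for the 56 members with an own exon of at least 1000 bases, as the mean (point) and range (line) over the 3 control (grey) and 3 mutant (red) libraries. A line that reaches the lower edge includes a library with 0 counts, and *Pcdhgc3*, at 46.5 in the controls, stands above all other members.

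The first question was whether the clusters as a whole differed between the genotypes. Together the 58 members took 0.0539%, 0.0555% and 0.0571% of all counts in the controls and 0.0687%, 0.0658% and 0.0674% in the mutants. Their summed level was 545, 560.4 and 573 CPM in the controls and 681, 660.4 and 669.6 CPM in the mutants, so that every mutant library lay above every control library. The mean was 19.8% higher, a log2 ratio of 0.26. The ratio was 0.31 within the libraries with Y-gene counts and 0.22 within those with *Xist*. No test was applied to these sums.

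The α and γ sums did not overlap between the genotypes, and the β sums did. The α genes summed to 86.7, 87.2 and 93.2 CPM in the controls and 116, 106 and 109 CPM in the mutants. The γ genes summed to 328, 318 and 309 CPM in the controls and 398, 373 and 398 CPM in the mutants. In both clusters every mutant library exceeded every control library, with log2 ratios of 0.31 and 0.29. The β genes summed to 130.0, 155 and 171 CPM in the controls and 166, 182 and 163 CPM in the mutants, a log2 ratio of 0.16, with control 3 above both mutant 1 and mutant 3. Within the libraries with Y-gene counts, the β ratio was 0.34, and within those with *Xist* it was 0.16. In all 5 subgroups of the α and γ clusters the mutant sums lay above the control sums, with log2 ratios of 0.36 for the alternate α genes, 0.26 for the α C-type genes, 0.30 for γ A, 0.24 for γ B and 0.31 for the γ C-type genes. The balance between the clusters overlapped between the genotypes. The γ genes took 53.9% to 60.2% of the members' counts, the β genes 23.8% to 29.9% and the α genes 15.6% to 17.1%. The 5 C-type genes took 33.7% ± 1.85 in the controls and 34.5% ± 1.22 in the mutants (SD, n = 3), also with overlapping ranges.

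**Figure D2:**
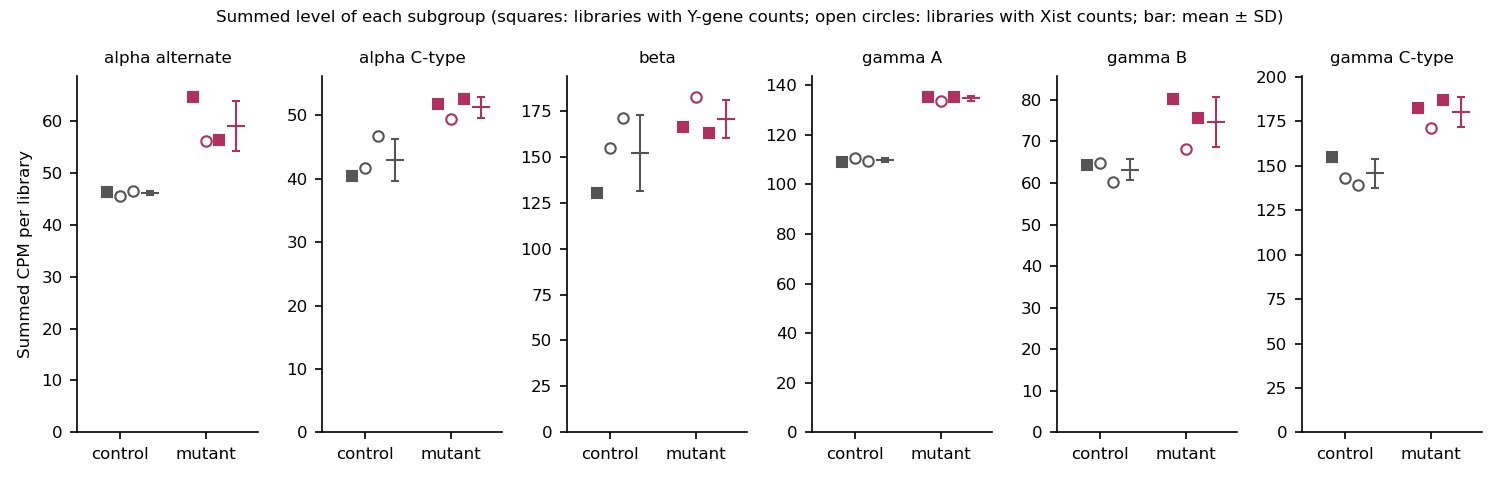
Summed CPM of each subgroup in every library, by genotype, with the mean and SD of the 3 libraries beside the points. Squares are libraries with Y-gene counts and open circles libraries with *Xist* counts. The β sums overlap between control (130.0 to 171 CPM) and mutant (163 to 182 CPM), and the other 5 do not.

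Gene by gene, 45 of the 53 tested members had a positive log2 fold change, against 8601 of 17505 tested genes. The median over the tested members was 0.25, with 0.39 for α, 0.15 for β and 0.28 for γ, and the median over all tested genes was −0.01. Genes were tested with edgeR (quasi-likelihood F-test, p adjusted by Benjamini-Hochberg over all tested genes), and a call required both an adjusted p below 0.01 and a log2 fold change of more than 0.5. Only 3 members, *Pcdha5*, *Pcdha6* and *Pcdhga5*, were called higher in the mutants (3.03% of all tested genes were), and 0 were called lower (3.63% of all tested genes were). Without a fold threshold, 16 of the 53 members (30.2%) had an adjusted p under 0.05 and were higher, against 12.2% of all tested genes. No member passed in the other direction, against 12.9% of all tested genes, and 1 member, *Pcdhga9*, was lower at an unadjusted p under 0.05. In 20 members (37.7%) every mutant library lay above every control library, and in *Pcdhga9* and the first *Pcdha11* row every mutant library lay below, where the shares among all tested genes were 20.4% and 20.1%. The α and γ genes made up most of the 16, with 5 of 11 tested α genes and 8 of 21 tested γ genes, and the β cluster gave 3 of 21. Within each of the library sets, the difference pointed upward in 46 members (Y-gene counts) and 40 members (*Xist*), with 36 upward in both. An upward difference in both sets was found in 36.6% of all tested genes and 67.9% of the members. With the Y-gene level as a covariate, the median was 0.27, 17 members passed an adjusted p under 0.05, all higher, against 14.0% of all tested genes in that fit. There 5 were called higher (*Pcdha5*, *Pcdha6*, *Pcdhb7*, *Pcdhga5* and *Pcdhga6*), against 3.55%.

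**Figure D3:**
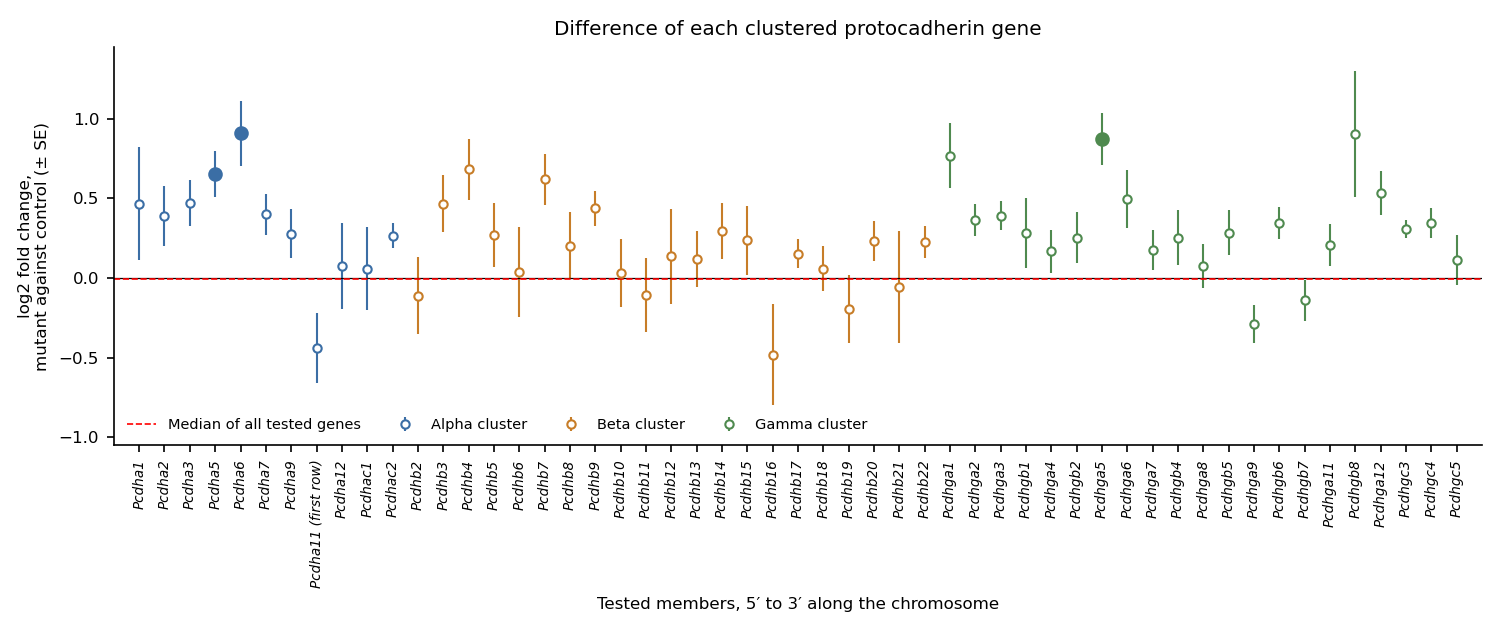
Log2 fold change of each of the 53 tested members (mutant against control, with its standard error) in chromosome order, coloured by cluster. Filled points are the 3 called members, the dashed line is the median of all tested genes (−0.01), and 45 points lie above 0.

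Among the alternate α genes, *Pcdha5* and *Pcdha6* were called higher. *Pcdha5* was counted at 4.95, 4.82 and 5.91 CPM in the controls and 8.42, 7.82 and 8.41 CPM in the mutants (log2 fold change 0.65, SE 0.14, adjusted p = 0.00863 by edgeR). *Pcdha6* was counted at 2.28, 3.26 and 2.44 CPM in the controls and 4.79, 5.60 and 4.61 CPM in the mutants (log2 fold change 0.91, SE 0.20, adjusted p = 0.0096). In both genes the lowest mutant library stood above the highest control library. The calls rest on few reads, between 35 and 92 counts per control library and between 74 and 146 per mutant library. Leaving out any one of the 6 libraries ended both calls, as did DESeq2, with adjusted p of up to 0.0353 for *Pcdha5* and 0.0379 for *Pcdha6* across 15 other fits, all of which kept the positive sign. Of the bases of *Pcdha6*, 399 overlap the antisense gene *Gm37753* and 222 overlap *Gm37013*, a gene on the same strand. The alternate α genes with the highest levels per own kb in the controls were *Pcdha3* (2.83), *Pcdha7* (2.83), *Pcdha9* (2.80) and *Pcdha2* (2.76 CPM per own kb), and 2 of them passed an adjusted p under 0.05. *Pcdha3* was counted at 7.36, 6.64 and 6.999 CPM in the controls and 11.3, 9.25 and 8.47 CPM in the mutants (log2 fold change 0.47, SE 0.14, adjusted p = 0.039). *Pcdha7* was counted at 6.18, 6.25 and 5.71 CPM in the controls and 8.13, 8.08 and 7.72 CPM in the mutants (log2 fold change 0.40, SE 0.13, adjusted p = 0.0485). *Pcdha2* was counted at 7.10, 6.90 and 6.68 CPM in the controls and 11.5, 6.65 and 8.91 CPM in the mutants (log2 fold change 0.39, SE 0.19, adjusted p = 0.164), with mutant 2 below all controls. The *Pcdha2* value rested on single libraries, at 0.18 without mutant 1 and 0.58 without mutant 2 (adjusted p = 0.0231 by edgeR).

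Along the α cluster, the log2 fold changes were larger at the 5′ side than at the 3′ side. This pattern was chosen after the values were seen. The 6 tested genes from *Pcdha1* to *Pcdha7* had log2 fold changes between 0.39 and 0.91 and a median of 0.47. The 5 tested genes from *Pcdha9* to *Pcdhac2* had values between −0.44 and 0.28 and a median of 0.07. *Pcdha9* (0.28), *Pcdha12* (0.07) and the first *Pcdha11* row (−0.44) had adjusted p of 0.224, 0.869 and 0.181. The first *Pcdha11* row was counted at 3.32, 3.91 and 4.62 CPM in the controls and 3.29, 3.13 and 2.30 CPM in the mutants, with every mutant library below every control library. Over the 11 tested α genes, Spearman's rho between the order along the chromosome and the log2 fold change was −0.71, and it was −0.32 over the 21 β and −0.18 over the 21 γ genes. These genes share their libraries, and the values are descriptions.

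Of the 5 C-type genes, which stand outside the choice among alternate isoforms, 0 were called (3.03% of all tested genes were called higher and 3.63% lower). At an adjusted p under 0.05, 3 were higher (12.2% of all tested genes were). *Pcdhgc3* was counted at 87.9, 82.2 and 83.9 CPM in the controls and 106, 99.2 and 109 CPM in the mutants (log2 fold change 0.31, SE 0.06, adjusted p = 0.00331). It passed the adjusted p of the call but not its fold threshold, and of all members it had the smallest adjusted p. *Pcdhgc4*, a γ isoform known for neuron survival, was counted at 57.4, 50.6 and 43.7 CPM in the controls and 67.3, 61.3 and 64.3 CPM in the mutants (log2 fold change 0.35, SE 0.09, adjusted p = 0.0233). *Pcdhac2* was counted at 38.5, 39.5 and 45.1 CPM in the controls and 49.5, 47.6 and 50.6 CPM in the mutants (log2 fold change 0.26, SE 0.08, adjusted p = 0.0353). All mutant libraries stood above all control libraries in these 3 genes, the closest pairs being 57.4 against 61.3 CPM for *Pcdhgc4* and 45.1 against 47.6 CPM for *Pcdhac2*. *Pcdhgc5* was counted at 9.70, 10.03 and 11.6 CPM in the controls and 9.46, 10.6 and 13.8 CPM in the mutants (log2 fold change 0.11, SE 0.15, adjusted p = 0.64). *Pcdhac1* was counted at 1.95, 2.21 and 1.61 CPM in the controls and 2.31, 1.76 and 1.93 CPM in the mutants (log2 fold change 0.06, SE 0.26, adjusted p = 0.892). The groups overlapped in both genes. *Pcdhgc3* alone took 25.8% to 27.4% of the γ counts in the 6 libraries, and *Pcdhac2* took 42.6% to 48.4% of the α counts.

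**Figure D4:**
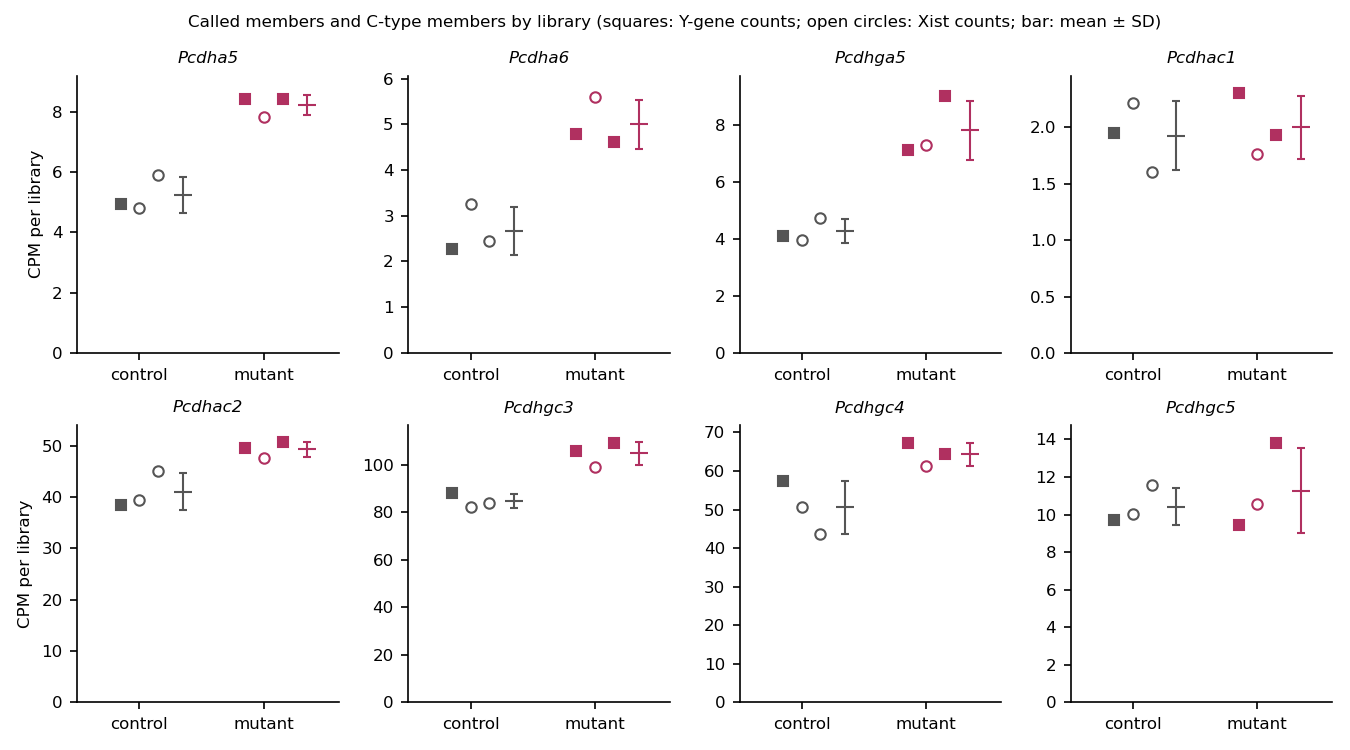
CPM in every library of the 3 called members (*Pcdha5*, *Pcdha6*, *Pcdhga5*) and the 5 C-type members, by genotype, with the mean and SD of 3 libraries beside the points. Squares are libraries with Y-gene counts and open circles libraries with *Xist* counts. The groups overlap in *Pcdhac1* and *Pcdhgc5* and in none of the other 6.

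None of the 21 tested β genes was called, where 3.03% of all tested genes were called higher and 3.63% lower. *Pcdhb4* was counted at 3.45, 5.08 and 4.24 CPM in the controls and 5.998, 6.65 and 7.85 CPM in the mutants (log2 fold change 0.68, SE 0.19, adjusted p = 0.0251). *Pcdhb7* was counted at 7.42, 7.29 and 8.99 CPM in the controls and 12.6, 14.1 and 9.78 CPM in the mutants (log2 fold change 0.62, SE 0.16, adjusted p = 0.0175). *Pcdhb9* was counted at 9.37, 9.44 and 10.9 CPM in the controls and 13.2, 13.4 and 13.6 CPM in the mutants (log2 fold change 0.44, SE 0.11, adjusted p = 0.015). In each of these 3 all mutant libraries exceeded all control libraries, and with the Y-gene level as a covariate *Pcdhb7* was called (log2 fold change 0.68, adjusted p = 0.00318). The 3 β genes with the most counts had smaller differences, and none passed an adjusted p under 0.05. *Pcdhb22* was counted at 14.5, 17.8 and 16.6 CPM in the controls and 19.03, 18.6 and 19.5 CPM in the mutants (log2 fold change 0.22, SE 0.10, adjusted p = 0.124), and reads on the 455 bases it shares with *Pcdhb21* may have gone to either gene. *Pcdhb17* was counted at 15.2, 16.1 and 16.8 CPM in the controls and 19.1, 17.3 and 17.1 CPM in the mutants (log2 fold change 0.15, SE 0.09, adjusted p = 0.264). *Pcdhb20* was counted at 13.7, 12.2 and 16.2 CPM in the controls and 16.8, 14.7 and 17.9 CPM in the mutants (log2 fold change 0.23, SE 0.13, adjusted p = 0.209), with overlapping groups. The other 15 tested β genes had log2 fold changes between −0.48 and 0.47, with an adjusted p of 0.0876 (*Pcdhb3*) or more.

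*Pcdhb16*, *Pcdhb19* and *Pcdhb21* were higher in all *Xist* libraries than in the libraries with Y-gene counts, in both genotypes. *Pcdhb16* was counted at 5.86, 12.2 and 12.6 CPM in controls 1, 2 and 3 and 6.40, 10.6 and 5.04 CPM in mutants 1, 2 and 3. Its lowest *Xist* library was mutant 2 and its highest other library mutant 1. *Pcdhb21* was counted at 3.32, 6.97 and 6.93 and 3.75, 8.60 and 4.30 CPM, and *Pcdhb19* at 9.44, 14.1 and 17.1 and 11.5, 14.5 and 9.65 CPM, in the same order of libraries. In the edgeR fit with the Y-gene level, its coefficient had an adjusted p of 0.000687 for *Pcdhb16*, 0.00121 for *Pcdhb21* and 0.0206 for *Pcdhb19*. The other 50 tested members did not pass an adjusted p under 0.05 for this coefficient. Under 0.05 were 3 of 53 members against 4.47% of all tested genes, and under 0.01 were 2 of 53 against 3.09%. Both are close to the shares of all tested genes, so the difference between library sets is not particular to the members. The genotype differences of *Pcdhb16*, *Pcdhb21* and *Pcdhb19* were −0.48, −0.06 and −0.19 without the covariate and −0.20, 0.23 and −0.02 with it, none at an adjusted p under 0.05. Without these 3 genes, the β sum was 111, 121 and 134 CPM in the controls and 144, 149 and 144 CPM in the mutants, which no longer overlapped, with a log2 ratio of 0.25. That sum leaves out genes chosen for their values and is a description.

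**Figure D5:**
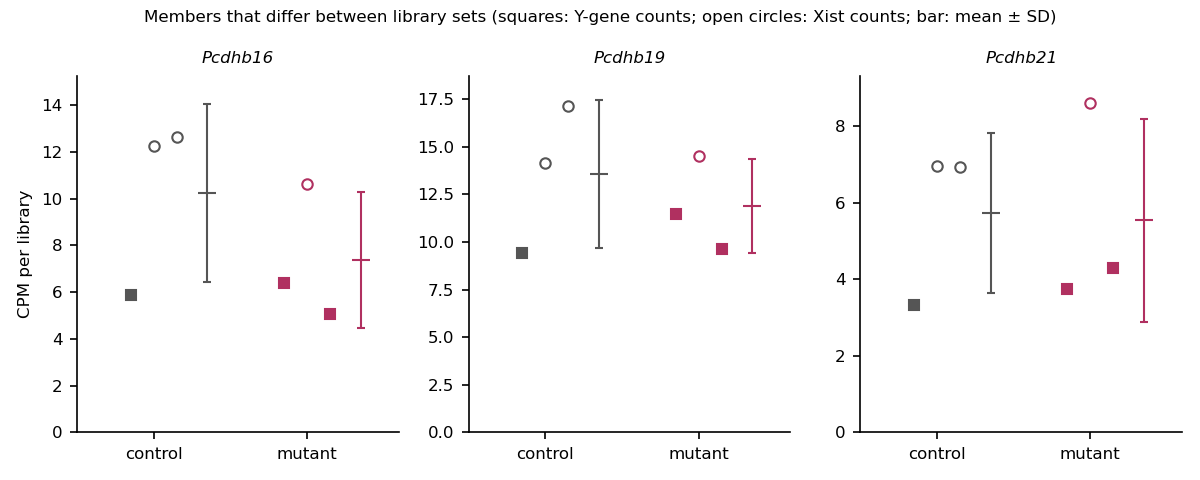
CPM of *Pcdhb16*, *Pcdhb19* and *Pcdhb21* in every library, by genotype, with the mean and SD of 3 libraries beside the points. The open circles (libraries with *Xist* counts) lie above the squares (libraries with Y-gene counts) in all 3 panels, with *Pcdhb16* between 10.6 and 12.6 CPM in the *Xist* libraries.

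Of the γ genes, *Pcdhga5* was called. Its levels were 4.10, 3.97 and 4.75 CPM in the controls and 7.15, 7.30 and 9.03 CPM in the mutants (log2 fold change 0.87, SE 0.16, adjusted p = 0.00382 by edgeR), so that the lowest mutant library, mutant 1, lay above the highest control library, control 3. DESeq2 called it too, and leaving out control 1, control 2 or mutant 3 ended the call, with adjusted p of up to 0.0185 across 15 other fits. *Pcdhga3* was counted at 15.2, 13.3 and 14.3 CPM in the controls and 19.3, 18.7 and 18.2 CPM in the mutants (log2 fold change 0.39, SE 0.09, adjusted p = 0.0115). *Pcdhgb6*, the alternate γ gene with the most counts, was counted at 22.98, 22.1 and 20.997 CPM in the controls and 32.1, 25.5 and 26.3 CPM in the mutants (log2 fold change 0.34, SE 0.10, adjusted p = 0.035). Groups did not overlap in either gene. Further A-type genes at an adjusted p under 0.05 were *Pcdhga1* (log2 fold change 0.77), *Pcdhga2* (0.36) and *Pcdhga12* (0.53), all higher. Of the tested genes, 5 of 11 of A type (45.5%) and 1 of 7 of B type (14.3%) passed, against 12.2% of all tested genes. The difference between these types was not tested. *Pcdhga9* was the γ gene with the lowest value. Its levels were 12.95, 14.9 and 12.3 CPM in the controls and 11.2, 11.8 and 9.84 CPM in the mutants (log2 fold change −0.29, SE 0.12, adjusted p = 0.109), with every mutant library below every control library. *Pcdhgb7* had a log2 fold change of −0.14 (adjusted p = 0.469). *Pcdhgb8*, the pseudogene, had a log2 fold change of 0.90 on 8 to 42 counts per library (adjusted p = 0.127). The other 9 γ genes that did not pass an adjusted p of 0.05 lay between 0.08 and 0.50, the highest being *Pcdhga6* (adjusted p = 0.0712). Across all tested members, the log2 fold change did not follow the level, with Spearman's rho of −0.09 over 53 genes.

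Genes known to act on the promoters of these clusters or on chromatin there were mostly lower in the mutants. Of 21 tested, 18 had a negative log2 fold change, and the median was −0.34. At an adjusted p under 0.05, 12 were lower (12.9% of all tested genes were) and 1 higher (12.2% were). *Dnmt3b*, which methylates DNA de novo, was the only one called, at 14.5, 15.6 and 15.6 CPM in the controls and 7.50, 8.80 and 9.16 CPM in the mutants (log2 fold change −0.84, SE 0.11, adjusted p = 0.000683). *Ctcf*, the architectural protein bound at the variable promoters, had −0.34 (adjusted p = 0.000755). The cohesin subunits *Smc1a* (−0.49), *Smc3* (−0.46) and *Rad21* (−0.34) had adjusted p of 0.00026, 0.000755 and 0.0013. *Dnmt3a*, the other de novo methylase, was the gene that was higher (0.22, adjusted p = 0.0089), and *Rest*, a repressor of neuronal genes, had 0.14 (adjusted p = 0.262). *Zfp274* was listed too and has no row under that symbol in the table. Progenitor markers were lower beside them, with the values given below, and the part of these factors in the members' levels was not tested.

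Binding partners and proteases of the protocadherins showed no call among 22 tested genes (3.03% of all tested genes were called higher and 3.63% lower), with a median of −0.02. *Ptk2*, the focal adhesion kinase that the γ and α constant parts inhibit, had −0.27 (adjusted p = 0.00224). *Fyn*, a Src-family kinase, had 0.22 (adjusted p = 0.00355). Of the 12 δ protocadherins and relatives outside the clusters, *Pcdh8* was called higher, at 46.2, 36.5 and 41.9 CPM in the controls and 64.8, 54.4 and 60.8 CPM in the mutants (log2 fold change 0.53, SE 0.10, adjusted p = 0.00361). That call was lost without control 2, control 3, mutant 1 or mutant 3 and with the Y-gene covariate. The list's median was 0.30, with 5 of 12 higher and 2 lower at an adjusted p under 0.05 (12.2% and 12.9% of all tested genes were). Among 18 classical cadherins, 0 were called and the median was −0.02, with *Cdh13* at 0.43 (adjusted p = 0.00105) and *Cdh4* at −0.31 (adjusted p = 0.0022). Of 9 Fat, Dachsous and Celsr cadherins, *Fat2*, a giant cadherin of granule cells, was called lower (log2 fold change −0.62, SE 0.06, adjusted p = 0.000133), and the median was 0.16.

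Genes around the clusters had differences near 0 in most cases. Of 34 tested neighbours within 500 kb, 19 had a positive log2 fold change and the median was 0.05. Calls were 2 higher and 0 lower (3.03% and 3.63% of all tested genes were). At an adjusted p under 0.05, 5 were higher and 3 lower (12.2% and 12.9% of all tested genes were). *Gnpda1*, an enzyme of glucosamine metabolism, was called higher at 11.001, 8.85 and 9.76 CPM in the controls and 17.2, 15.4 and 18.8 CPM in the mutants (log2 fold change 0.80, SE 0.12, adjusted p = 0.00124). *Rell2*, a relative of the RELT receptor, was called higher at 24.997, 28.8 and 32.9 CPM in the controls and 42.3, 42.9 and 42.2 CPM in the mutants (log2 fold change 0.55, SE 0.10, adjusted p = 0.00301), and this call was lost without control 1, control 2, mutant 1 or mutant 3. *Taf7*, which lies between the β and γ clusters, had −0.08 (adjusted p = 0.621), and *Diaph1*, beyond the γ cluster, had 0.05 (adjusted p = 0.729).

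Markers of cell types moved with the genotype beside the members. Granule neuron progenitor markers summed to 1576, 1658 and 1551 CPM in the controls and 596, 629 and 569 CPM in the mutants, and all 9 were called lower, with *Atoh1* (−6.40), *Barhl1* (−2.59), *Mfap4* (−2.10) and *Mdga1* (−1.09) having the smallest p. Granule neuron markers summed to 3483 to 3655 CPM in the controls and 2452 to 2623 CPM in the mutants, with 5 of 9 tested called lower, among them *Nhlh1* (−1.78), *Neurod1* (−1.16), *Pax6* (−0.99) and *Rbfox3* (−0.73). Purkinje cell markers summed to 1999.9 to 2121 CPM in the controls and 2679 to 3198 CPM in the mutants, with 6 of 12 called higher, among them *Skor2* (0.78), *Calb1* (0.68), *Car8* (0.63) and *Arhgef33* (0.59). In that list 1 marker was lower at an adjusted p under 0.01 by edgeR (log2 fold change −0.38), short of the fold threshold. GABAergic interneuron markers summed to 489 to 499.9 CPM in the controls and 702 to 733 CPM in the mutants, with 4 of 8 called higher (*Slc32a1* 0.65, *Slc6a5* 0.64, *Gad1* 0.58, *Gad2* 0.52) and 1, the progenitor factor *Ptf1a* (−1.18), called lower. In bulk tissue, fewer cells of a type and less RNA per cell cannot be told apart. The log2 ratio of the members' sum (0.26) was smaller than those of the Purkinje (0.52) and GABAergic (0.53) sums, and the part of cell makeup in it was not tested.

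Glial and non-neural markers varied as well. Astrocyte and Bergmann glia markers summed to 3416 to 3466 CPM in the controls and 4489.5 to 4853 CPM in the mutants, with 3 of 10 called higher (*Gdf10* 1.18, *Gfap* 1.42, *Aqp4* 0.64). Oligodendrocyte lineage markers summed to 511 to 549 CPM in the controls and 675 to 722 CPM in the mutants, with 6 of 9 called higher, among them *Sox10* (0.97), *Olig1* (0.71) and *Mbp* (0.69). In that list 1 marker was lower at an adjusted p under 0.01 by edgeR (log2 fold change −0.45), short of the fold threshold. Meninges markers summed to 418 to 444 CPM in the controls and 624 to 763 CPM in the mutants, with 4 of 9 called higher (*Ogn* 1.22, *Col1a1* 0.85, *Igf2* 0.82, *Col1a2* 0.77). Microglia markers had 1 of 8 called higher (*C1qa* 0.59), and markers of cerebellar nuclei and unipolar brush cells had 1 of 7 (*Meis2* 0.66). In the latter list *Slc17a6* (−0.49, adjusted p = 0.000459) and *Eomes* (−0.42, adjusted p = 0.00125), chosen after their values were seen, were lower by less than the fold threshold. Its sum was 207, 214 and 209.5 CPM in the controls and 182, 182 and 182 CPM in the mutants, with all mutants below all controls. The other 5 genes of that list had a positive log2 fold change, and the list's median was 0.21. Endothelium and pericyte markers had 0 of 9 called (*Kdr* −0.23, *Rgs5* −0.14), and erythrocyte markers 0 of 5 (*Hba-a1* −0.28, *Alas2* 0.10). Markers of choroid plexus and of aminergic neurons had sums that varied between single mutant libraries. Choroid plexus markers summed to 199.8, 161 and 131 CPM in the controls and 222, 35.2 and 783 CPM in the mutants, with 1 of 7 called lower (*Otx2* −1.16). The other 6 had a positive log2 fold change without a call, and the list's median was 0.94. Serotonergic and noradrenergic neuron markers summed to 9.83, 8.53 and 8.99 and 28.1, 6.91 and 77.9 CPM, with 0 of 3 tested called (*Dbh* 3.66, *Slc6a2* 3.40), and the defining serotonergic markers *Tph2*, *Slc6a4* and *Fev* did not pass the filter. Both sums were lowest in mutant 2 and highest in mutant 3, where the members' sum was 660.4 and 669.6 CPM. Whether the sources of these markers bear on the members' sum was not tested.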

How the data were processed

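Bulk RNA-seq libraries of postnatal day 1 mouse cerebellum (3 control, 3 mutant) were analysed; other assays of the study were not analysed here. According to the submitters' processing notes, the authors aligned 150 bp paired-end reads to mm10 with HISAT2 2.0.5 and counted them per gene with featureCounts 1.5.0-p3. The deposited raw counts were the main measure, and the deposited FPKM values, which the authors computed from count and gene length, served as an alternative. Strand setting and treatment of reads shared by several genes are not given in the sources used here. Both bear on genes with shared or overlapping exons.

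Counts of 54532 genes were filtered with filterByExpr, TMM-normalized and tested in R 4.3.3 with edgeR 4.0.16 (quasi-likelihood test, 17505 genes, Benjamini-Hochberg adjustment over all of them). The standard error was the log2 fold change divided by the root of the F statistic. Tested genes held 99.8% of the counts. On simulated counts with 200 changed genes among 17529, edgeR recovered 194 with 4 false calls. The changed genes had a median absolute log2 fold change of 0.998, were drawn from well-counted genes alone, and all genes had the same dispersion. The simulation held no library sets. It checks the fitting code and does not measure how many members with smaller differences or fewer counts would be recovered. Alternatives were DESeq2 1.42.0, limma 3.58.1 on log2(FPKM + 1) and log2(FPKM + 0.1), other scalings and filters, a Y-gene covariate, a replicate block and each library left out in turn. Counts of same-group libraries differed beyond sampling noise (chi-square per gene 3.66 to 10.2), so each counted as 1 replicate. An exact permutation test of 3 against 3 libraries cannot go below p = 0.1 and was not used. The members, gene lists and tests were chosen with earlier results of these data known. Genes were named with their values where they were called, among the 5 C-type members, or among the 3 highest or the 3 of smallest p in a cluster, and from other lists up to 4 called genes of smallest p or otherwise the 2 of smallest p. A gene that the rule names is not reported here. Genes named outside this rule were chosen after their values were seen. Exon overlaps were computed from the GENCODE M21 annotation.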

Additional observations from a re-analysis of the deposited data

How the results depend on the processing

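The count of members called higher (3) depended on the settings. It was 1 with DESeq2 (*Pcdhga5*), 7 without a filter on low counts (adding *Pcdhb4*, *Pcdhb7*, *Pcdhga1* and *Pcdhga12*), 5 with the Y-gene level as a covariate, 0 on log2(FPKM + 1) and on log2(FPKM + 0.1), and 16 at an adjusted p under 0.05 with no fold threshold. Of all tested genes, 3.03% were called higher in the main fit, 3.55% with the covariate and 12.2% at an adjusted p under 0.05. For the other settings, those below included, the share of all genes called is not given here. A change in the members and a change in all genes called therefore cannot be told apart there. Leaving out 1 library gave 0 to 2 called members, with 0 without control 1 or control 2. The call was *Pcdhga5* without control 3 or mutant 1 and *Pcdhb7* without mutant 3. Without mutant 2 the calls were *Pcdhga1* and *Pcdhga5*. *Pcdhb7* and *Pcdhga1* were not called in the main fit. Other scalings and a minimum of 10 counts in every library gave 3. No member was called lower under any of the 17 alternatives. The median member difference (0.25) was 0.16 on log2(FPKM + 1), where the pseudocount shrinks low genes, and 0.23 to 0.30 with 1 library left out.

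The α sum's log2 ratio (0.31) was 0.38 within the libraries with Y-gene counts and 0.23 within those with *Xist*, and the β ratio (0.16) was 0.34 within the former. These splits were chosen after seeing the data, and the cause was not tested. With 1 library left out, the ratios ranged from 0.27 to 0.34 for α, from 0.06 (without control 1) to 0.26 (without control 3) for β and from 0.27 to 0.32 for γ. Signs turned in 3 genes with no call. With 1 library left out, *Pcdhac1* ranged from −0.059 to 0.17 (negative without control 3 or mutant 1), *Pcdhgc5* from −0.060 to 0.23 (negative without mutant 3) and *Alas2* from −0.12 to 0.29 (negative without control 2 or mutant 2). Over the named genes and alternatives, 896 values kept their direction and side of the threshold, 44 lost a call and 13 gained one.

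Libraries with the same number were not paired by the labels, and their deviations correlated at 0.24, 0.26 and −0.16. Control 1 and mutant 1 are both in the Y set, and control 2 and mutant 2 both in the *Xist* set. Control 3 and mutant 3 are in different sets. The correlations therefore cannot show whether same-numbered libraries share anything beyond the set. With the replicate number as a block, 4 members were called (adding *Pcdhga12*). Called members had few reads per library, and smaller differences may not be detectable at this depth.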
